A study of Homo sapiens with 3 samples.

Results

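The Hippo pathway and the genes switched on by its coactivator YAP were followed in PANC-1 cells, a cell line derived from a human pancreatic duct cancer. There were 10 genes, taken by their symbols: the kinases LATS1 and LATS2, the coactivators YAP1 and WWTR1, the DNA-binding factors TEAD1 and TEAD4, and the target genes CCN1, CCN2, ANKRD1 and AMOTL2. They were represented by 11 probes among 34041 probes, and by 10 of the 19699 genes to which a probe could be matched. Gene expression was measured on 3 single-colour Agilent arrays, 1 for untreated control cells, 1 for cells given cantharidin and 1 for cells given okadaic acid (OA). All cells were of the same line and were grown in medium with fetal calf serum. The labels give both agents at 20 µM for 24 h, and name no vehicle for the control. With 1 array per group there were no replicates, so no test was possible, and every difference below is one between these 3 arrays. The control array enters both comparisons with untreated cells, so those are not independent of each other.

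In the Hippo pathway, a kinase cascade ends in LATS1 and LATS2, which phosphorylate YAP (gene YAP1) and its paralogue TAZ (gene WWTR1). Phosphorylated YAP and TAZ are held in the cytoplasm or degraded. When they are not phosphorylated they enter the nucleus and bind TEAD factors at the promoters and enhancers of genes for growth, adhesion and matrix. Protein phosphatase 2A (PP2A) sits in the STRIPAK complex, which keeps the upstream kinases dephosphorylated, and cantharidin and OA are both inhibitors of PP2A and of related phosphatases. CCN1 and CCN2 encode secreted matrix proteins, ANKRD1 a nuclear ankyrin-repeat protein, and AMOTL2 an angiomotin that binds YAP. These 4 genes are in wide use as readouts of YAP and TAZ. The arrays measured mRNA and neither protein nor phosphorylation.

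The promoters of CCN2, AMOTL2 and ANKRD1 are shown because these target genes carry the letters that TEAD factors bind, and that of NUAK2 because this kinase gene, a further YAP target, differed most between the agents among the listed target genes. Each line gives the 250 bases before the transcription start, 5′ to 3′ along the gene, from RefSeq on GRCh38.p14, with GGAATG or its reverse complement CATTCC in capitals. The windows lie on the minus strand at chr6:131951373-131951622 for CCN2, chr3:134374448-134374697 for the second listed start of AMOTL2, chr10:90921088-90921337 for ANKRD1 and chr1:205321746-205321995 for NUAK2.
CCN2: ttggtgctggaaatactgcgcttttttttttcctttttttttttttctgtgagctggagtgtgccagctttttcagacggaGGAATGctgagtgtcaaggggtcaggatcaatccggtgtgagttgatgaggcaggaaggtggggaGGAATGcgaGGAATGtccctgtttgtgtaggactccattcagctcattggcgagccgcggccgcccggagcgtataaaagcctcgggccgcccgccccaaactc
AMOTL2: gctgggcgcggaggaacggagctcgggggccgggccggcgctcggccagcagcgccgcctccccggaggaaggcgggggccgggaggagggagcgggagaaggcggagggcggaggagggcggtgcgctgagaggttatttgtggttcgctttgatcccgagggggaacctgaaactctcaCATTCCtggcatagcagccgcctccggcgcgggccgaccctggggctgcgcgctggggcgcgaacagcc
ANKRD1: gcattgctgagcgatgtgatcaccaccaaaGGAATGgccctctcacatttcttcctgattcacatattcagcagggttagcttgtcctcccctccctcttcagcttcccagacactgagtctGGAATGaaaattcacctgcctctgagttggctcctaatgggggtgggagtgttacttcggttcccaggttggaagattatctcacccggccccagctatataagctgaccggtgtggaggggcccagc
NUAK2: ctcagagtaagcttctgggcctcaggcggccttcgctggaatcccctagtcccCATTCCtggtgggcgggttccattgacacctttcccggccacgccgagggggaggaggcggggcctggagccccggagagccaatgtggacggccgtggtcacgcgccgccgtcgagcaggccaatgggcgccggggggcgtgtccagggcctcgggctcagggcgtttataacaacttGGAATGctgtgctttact

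Both strands were searched for GGAATG, the core of the TEAD site, and for TGANTCA, the site of AP-1 factors, in windows that ran on for 50 bases past the start. Promoters were listed for 7 of the 10 genes, with 10 start sites in all. CCN1, TEAD1 and TEAD4 had no entry. Of these 10 windows, 5 held GGAATG, whereas 14.0% of all 35116 listed promoters did. CCN2 held 3 matches, beginning -169, -104 and -95 bases from the start, and 0.128% of all promoters (45) held at least 3. ANKRD1 held 2, at -220 and -128, a number reached by 1.37% of all promoters. AMOTL2, YAP1 and LATS2 held 1 each, at -69, -162 and 10. NUAK2 held 2, at -197 and -18. TGANTCA was found in ANKRD1 at -195, apart from its TEAD letters, and at 1 start site of LATS1, and in 7.71% of all promoters. These matches describe letters and no occupancy.

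**Figure D1:**
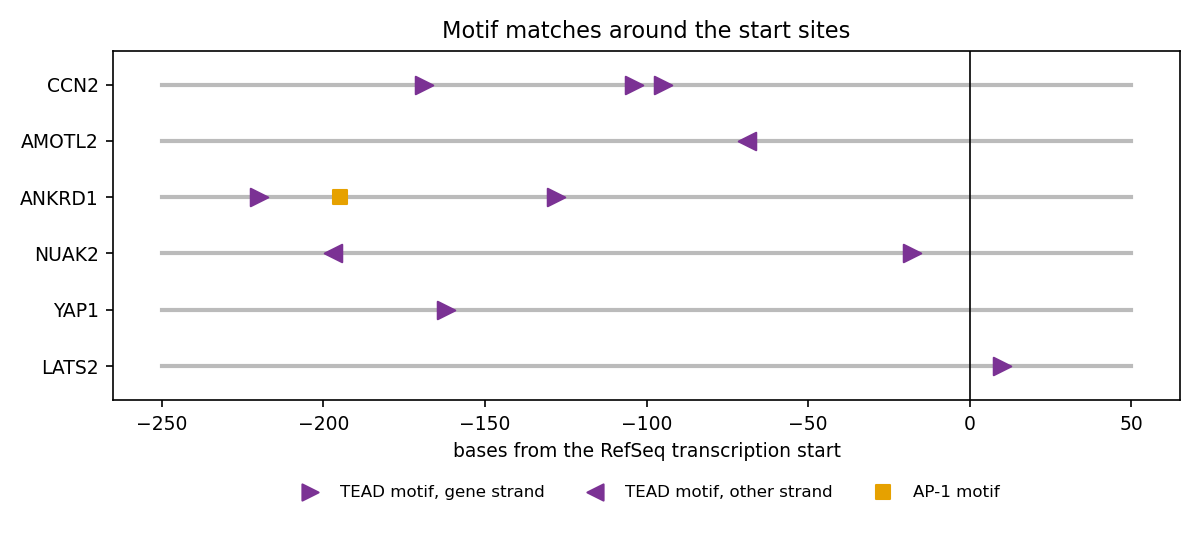
Positions of the TEAD letters (GGAATG, triangles pointing along the strand) and AP-1 letters (TGANTCA, squares) in RefSeq promoters, in bases from the transcription start; each grey line is 1 window from 250 bases before to 50 after the start. CCN2 carries 3 TEAD matches within the window, ANKRD1 and NUAK2 carry 2, and AMOTL2, YAP1 and LATS2 carry 1.

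Intensities are the scanner software's processed values, and the ± beside them is the error that the same software assigns to a spot, which grows with the value. Differences are on the log2 scale, with the 75th percentile of every array set to 0. That percentile lay at an intensity of 784 for control, 713 for cantharidin and 936 for OA. A gene was counted as higher or lower at 1.5-fold, the threshold used in the study, and was represented by its brightest probe. The error covers the spot and not the culture, and whether the arrays came from separate cultures is not stated. Probes printed in 10 spots give a check on it. Pooled over such probes, at most 2.11% of the same-probe pairs of spots on an array differed by 1.5-fold or more. Only spots well above background were counted. All arrays carried 1 scan time. Duct keratins (4 of 4 markers) were well above background on every array. Of the markers of other cell types, 2 of 3 acinar, 3 of 3 leukocyte and 2 of 3 endothelial genes were detected on every array. Fibroblast markers were detected for 2 of 3 genes on the control array and 1 of 3 on each treated array, with summed intensities of 609, 59.7 and 124 for control, cantharidin and OA. COL1A1 carried most of the control sum, at 528, and was not well above background after either agent, while DCN read 73.1, 37.7 and 76.2. CPA1 (acinar) and LUM (fibroblast) did not reach this level on any array, and PECAM1 (endothelial) reached it on the control array by 1 of its probes, not the one used. The leukocyte sum was 3166, 2325 and 11839 on the same arrays. CD14 made up most of it, at 2535, 1838 and 11044, and CD3E and the brightest probe of PTPRC lay within 1.5-fold of control under both agents. Another PTPRC probe read 26.0 in control, not well above background, 179 after cantharidin and 132 after OA, and was past 1.5-fold higher under both. Of the remaining PTPRC probes, one lay within 1.5-fold and the last was dim on every array. The labels name only PANC-1 cells, and whether any other cell type had a part in the values below was not tested. In such bulk RNA fewer cells of a type and less RNA per cell cannot be told apart.

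Under cantharidin the coactivators and the 3 compared target genes among the members lay on opposite sides of the control. YAP1, WWTR1 and the brightest probe of LATS1 were higher than in control cells, while CCN1, CCN2, AMOTL2 and TEAD1 were lower. That made 3 genes higher and 4 lower of the 9 compared, with a median log2 difference of -0.34. Among all 16644 genes compared, 27.5% were higher and 34.1% lower, with a median of -0.16, so the shares of the members did not lie far from the background. ANKRD1 did not rise well above the local background on any of the arrays and was not compared.

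Under OA, YAP1, WWTR1 and LATS1 were again higher and TEAD1 lower than in control cells, and none of the 3 compared target genes among the members was lower. CCN1 was higher, CCN2 and AMOTL2 lay within 1.5-fold of control, and TEAD4 was lower. In all, 4 of 9 genes were higher and 2 lower, with a median of 0.42. The background was 28.1% higher and 28.8% lower of 16166 genes, with a median of 0.01.

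The treated arrays were also set against each other without the control. CCN1, CCN2, AMOTL2 and LATS1 were higher after OA than after cantharidin and TEAD4 was lower, with a median of 0.55 over the 9 genes. Of 16200 genes, 29.5% were higher and 22.3% lower, with a median of 0.13. The 3 target genes of the members that could be compared were among the higher ones, but of 15 further YAP and TAZ target genes compared, 5 were higher and 7 lower, with a median of -0.49.

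**Figure D2:**
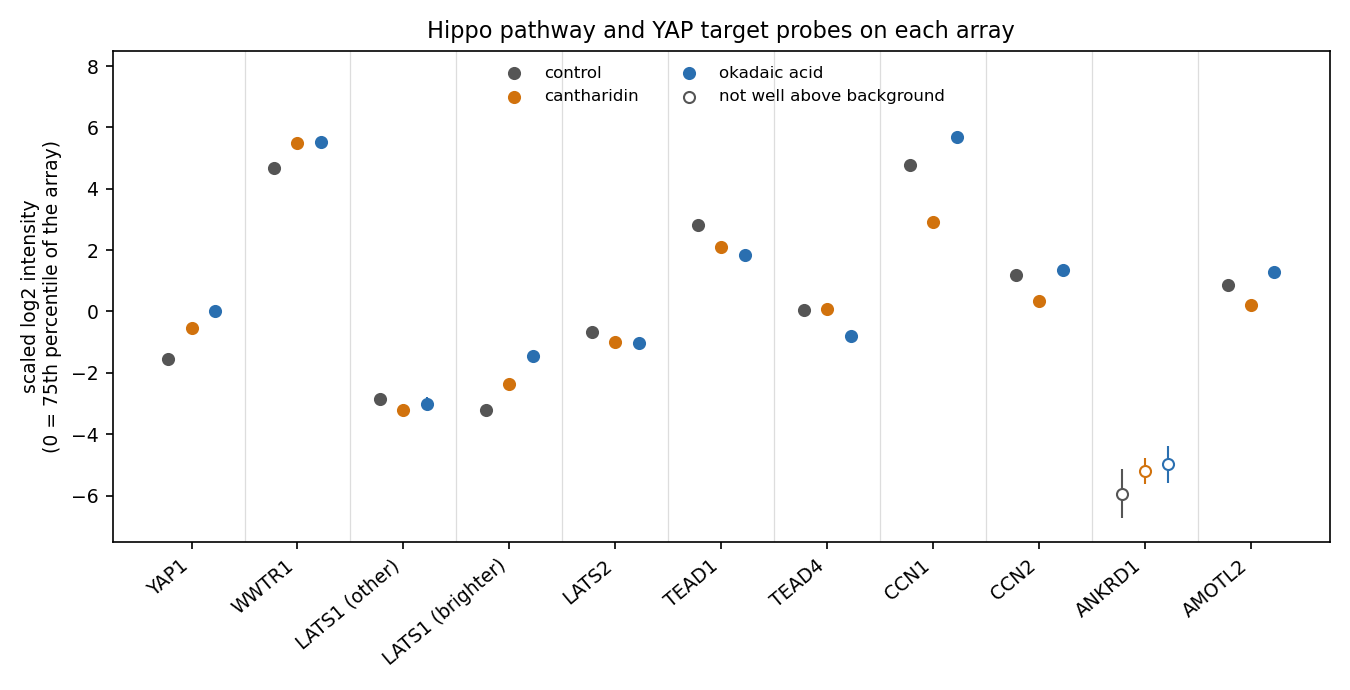
Scaled log2 intensity of the 11 probes on the 3 arrays (vertical axis, 0 is the 75th percentile of an array; horizontal axis, probes; bars, the scanner software's error, smaller than most points; open points, not well above background). For CCN1, CCN2 and AMOTL2 the cantharidin array is the lowest and the OA array the highest, whereas YAP1 and WWTR1 are lowest in control; heights of different probes are not comparable.

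YAP1 read 265 ± 27.7 in control, 493 ± 49.7 after cantharidin and 945 ± 95.5 after OA. Its probe was printed in 10 spots, which ranged from 243 to 284 in control, from 447 to 517 after cantharidin and from 832 to 1025 after OA. The spots of the 3 arrays did not overlap. YAP1 was 2.05-fold higher after cantharidin (log2 difference 1.03 ± 0.21) and 2.99-fold higher after OA (1.58 ± 0.21). OA exceeded cantharidin by 0.55 on the log2 scale, short of 1.5-fold.

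WWTR1, which encodes TAZ, was among the bright probes at 20168 ± 2017 in control, 32429 ± 3243 after cantharidin and 43452 ± 4345 after OA. Both treated arrays lay above control, by 1.77-fold for cantharidin (0.82 ± 0.20) and 1.81-fold for OA (0.85 ± 0.20). After scaling, the treated arrays differed by 0.03, well within the spot error.

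LATS1, a kinase that inactivates YAP and TAZ, had 2 probes, and they disagreed. The brighter probe by the mean over the 3 arrays, A_33_P3233764, read 83.8 in control, 138 after cantharidin and 342 after OA. In control it was the dimmer of the 2, so the choice of this probe drew on its treated values. It placed LATS1 1.82-fold higher after cantharidin (0.86 ± 0.25) and 3.42-fold higher after OA (1.77 ± 0.24). The other probe, A_23_P366230, read 109, 77.1 and 116 on the same arrays, with log2 differences of -0.36 for cantharidin and -0.16 for OA, which are within 1.5-fold. Both probes are annotated to transcript NM_004690, so the counts for LATS1 rest on the choice of probe. With the median over the probes, LATS1 stood at 0.25 for cantharidin, and with normexp background correction at 0.45, both within 1.5-fold. For OA against cantharidin the other probe gave 0.20, and the median over the probes, 0.56, was also within 1.5-fold.

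LATS2, the paralogous kinase and itself a gene that YAP can induce, read 496 in control, 356 after cantharidin and 460 after OA. Its log2 differences were -0.34 and -0.37, within 1.5-fold for both agents. No neighbouring arrays in its order differed by more than 2 errors.

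TEAD1, a DNA-binding partner of YAP and TAZ, read 5593 in control, 3086 after cantharidin and 3371 after OA. It was 1.65-fold lower after cantharidin (-0.72 ± 0.20) and 1.98-fold lower after OA (-0.99 ± 0.20). TEAD4, a further member of this factor family, read 816, 746 and 542 on the same arrays. It differed by 0.01 between cantharidin and control and was lower after OA by 0.84 on the log2 scale, past 1.5-fold. TEAD1 was thus lower on both treated arrays and TEAD4 on the OA array.

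CCN1, a secreted matrix protein gene that responds early to YAP and to serum, read 21354 ± 2135 in control, 5432 ± 543 after cantharidin and 48597 ± 4860 after OA. It was 3.57-fold lower after cantharidin (-1.84 ± 0.20) and 1.91-fold higher after OA (0.93 ± 0.20). The distance between the agents, 6.81-fold (2.77 ± 0.20), was the largest of the 9 genes in any of the 3 comparisons. No alternative setting brought any of these differences within 1.5-fold.

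CCN2, the paralogue with 3 TEAD matches in its promoter, read 1801 ± 180 in control, 905 ± 90.7 after cantharidin and 2412 ± 242 after OA. It was 1.81-fold lower after cantharidin (-0.85 ± 0.20). After OA it stood at 1.12-fold over control (0.17 ± 0.20), a gap smaller than the spot error. OA exceeded cantharidin by 2.03-fold (1.02 ± 0.20).

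AMOTL2, a scaffold at cell junctions that binds YAP, read 1427 ± 143 in control, 818 ± 82.1 after cantharidin and 2277 ± 228 after OA. It was 1.58-fold lower after cantharidin (-0.66 ± 0.20), close to the threshold, and 1.34-fold above control after OA (0.42 ± 0.20). Between the agents it was 2.12-fold higher with OA (1.08 ± 0.20). CCN1, CCN2 and AMOTL2 thus shared 1 order of arrays, with cantharidin lowest and OA highest, although for CCN2 the upper pair of arrays did not differ beyond 2 errors.

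ANKRD1 read 12.8 in control, 19.3 after cantharidin and 29.6 after OA. These signals lay at 0.36, 0.88 and 0.51 times the lowest signal that was well above background on the array. No fold is given for ANKRD1, and its promoter matches could not be set beside a measured level.

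**Figure D3:**
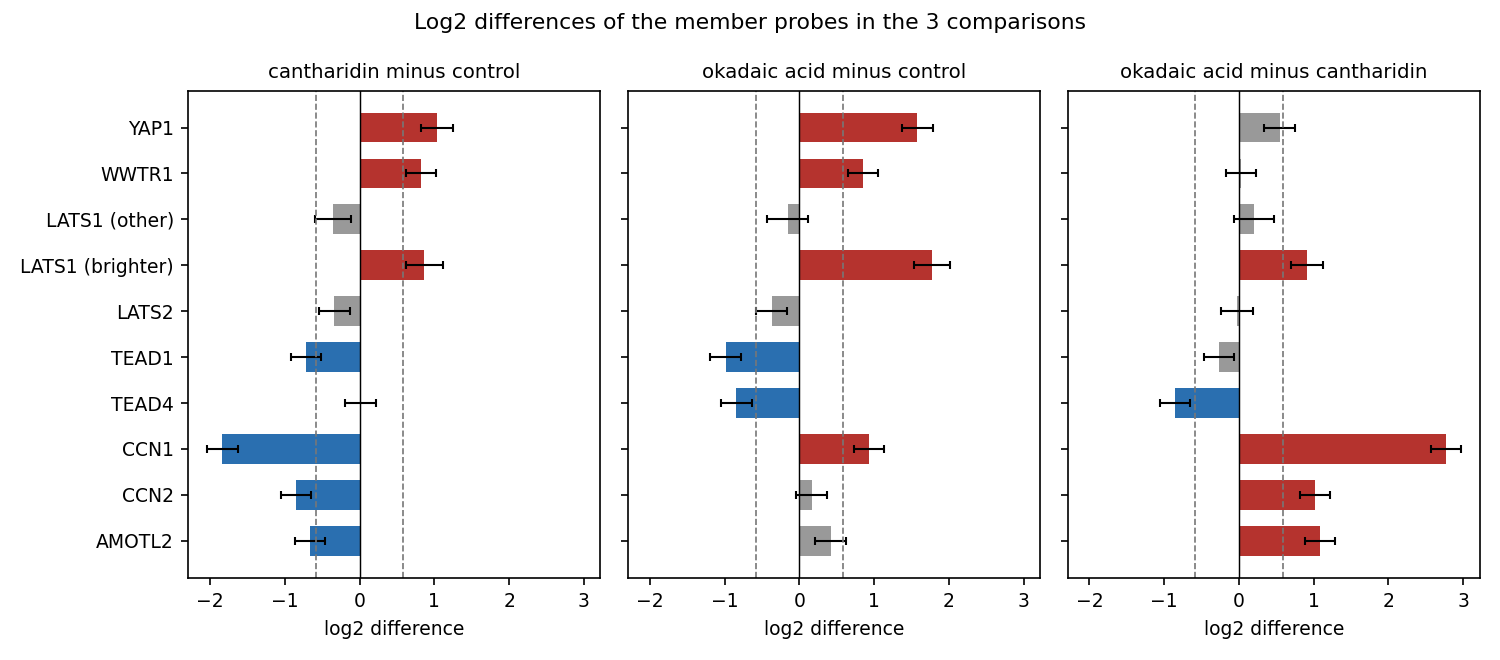
Log2 differences of the 10 compared probes for cantharidin minus control, OA minus control and OA minus cantharidin (bars, difference; error bars, combined scanner error of the arrays; dashed lines, 1.5-fold; red, at least 1.5-fold higher; blue, at least 1.5-fold lower; grey, within 1.5-fold). CCN1 runs from -1.84 to 0.93 between the first and the middle panel, and YAP1 and WWTR1 are above the upper line in both.

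The rest of the pathway was described with 6 lists of genes, in which 75 genes could be compared under cantharidin and 74 under OA. In the list of core kinases, adaptors and upstream regulators, cantharidin left 5 of 15 genes higher and 8 lower, with a median of -1.01, and OA 4 higher and 2 lower, with a median of -0.13. Over all genes 27.5% were higher and 34.1% lower under cantharidin, and 28.1% and 28.8% under OA, and these shares are the background for each list that follows. The count of lower genes under OA moved with the scaling, to 5 with median scaling, 4 with quantile normalization and 1 without scaling. The higher genes after cantharidin were MOB1A, SAV1, TAOK1, TAOK2 and TAOK3, of which SAV1 and MOB1A encode adaptors of the core kinases. The TAO kinases activate the STK3 and STK4 kinases at the top of the cascade. TAOK2 read 738 in control, 3594 after cantharidin and 1334 after OA, with differences of 2.42 and 0.60, the latter just past 1.5-fold. TAOK1 read 64.1, 160 and 246, with differences of 1.46 and 1.68. Its control signal was 1.83 times the lowest signal well above background. Across alternative settings the differences of TAOK1 fell as low as 0.68 under cantharidin and 0.86 under OA.

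The genes lower after cantharidin were DCHS1, FAT1, FAT4, FRMD6, MAP4K4, NF2, STK3 and WWC1. FAT1 and FAT4 encode giant cadherins at the cell surface, and WWC1 encodes KIBRA, an activator of LATS. FAT1 read 978 in control, 264 after cantharidin and 833 after OA (-1.75 and -0.49). WWC1 read 341, 100.2 and 362 (-1.63 and -0.17), and FAT4 104, 35.4 and 87.4 (-1.41 and -0.50). These 3 genes were past 1.5-fold under cantharidin and not under OA. With OA set directly against cantharidin, FAT1, FAT4 and WWC1 were higher by 1.26, 0.91 and 1.46, and 6 of 14 genes in the list were higher and 2 lower. Over all genes, 29.5% were higher and 22.3% lower in that comparison.

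In the STRIPAK complex, which brings PP2A to the core kinases, 5 of 13 genes were higher and 1 lower under cantharidin, with a median of 0.32. Under OA 6 were higher and 3 lower, with a median of 0.51. With the median over the detected probes of a gene, the counts under cantharidin were 2 higher and 2 lower, so the excess of higher genes rested on the brightest probes. STRN, which encodes striatin, the PP2A-binding scaffold, read 46.5 in control, 320 after cantharidin and 144 after OA (2.92 and 1.38). Its control signal was only 1.33 times the lowest signal well above background. In alternative settings its differences fell as low as 1.59 under cantharidin and 0.59 under OA. SIKE1 read 1408, 3563 and 7983 (1.48 and 2.25), although under cantharidin another detected probe of SIKE1 stood at -0.63. FGFR1OP2 was at 1.48 and 1.19, with other probes between -0.23 and 0.47. Of the kinase genes of the complex, STK24 was higher after cantharidin, and the others named were lower or near control. STK25 read 4066, 3907 and 1423 (0.08 and -1.77), and STK26 read 6068, 1839 and 4117 (-1.58 and -0.81).

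Among the remaining TEAD factors and the VGLL proteins, which compete with YAP for TEAD, cantharidin left 1 of 6 genes higher and 1 lower, and OA 0 of 5 higher and 1 lower. TEAD2 was the lower gene under both agents, at 440 in control, 103 after cantharidin and 94.2 after OA (-1.96 and -2.48). TEAD3 was higher after cantharidin (0.79) and at 0.28 after OA. By their brightest probes VGLL1, VGLL3 and VGLL4 lay within 1.5-fold of control on both treated arrays. VGLL1 was just short of the threshold under cantharidin (-0.58). Another detected probe of VGLL4 was 1.76-fold higher after cantharidin (0.81). In the list of angiomotins and of junction or degradation partners of YAP, 3 of 12 genes were higher and 4 lower under cantharidin (median -0.07), and 2 higher and 5 lower under OA (median -0.50, or -0.27 with the dim CRB3 signal at the floor of the array, the lowest signal well above background). The counts under cantharidin were close to the shares over all genes, and the 5 lower genes under OA became 1 without scaling and 7 with median scaling. BTRC, the ubiquitin ligase subunit that takes phosphorylated YAP to degradation, read 46.8, 110 and 278 (1.37 and 2.32). Its control signal was 1.34 times the floor. In alternative settings its difference fell as low as 0.46 under cantharidin, within 1.5-fold, and 1.01 under OA. AMOT, an angiomotin like AMOTL2, read 261, 112 and 184 (-1.09 and -0.76), and LIMD1, a LIM protein that restrains LATS, stood at -0.39 and -0.95.

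In that list WTIP lay on opposite sides of control under the agents. WTIP, a LIM protein related to LIMD1, read 2327 in control, 4995 after cantharidin and 1590 after OA (1.24 and -0.80). With OA set directly against cantharidin it was 4.13-fold lower.

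The list of other YAP and TAZ target genes had more genes lower than higher under both agents. Under cantharidin 5 of 17 genes were higher and 11 lower, with a median of -0.92. Under OA the counts were also 5 and 11, with a median of -1.40, or 5 and 10 with a median of -1.27 when dim signals were set to the floor, which removed CRIM1. The median for cantharidin was then -0.84. With normexp background correction, 7 of 17 were lower under cantharidin. NT5E, counted as higher under cantharidin by its brightest probe (1.02), stood at -1.47 by its other probe, which was the brighter one in control. Over all genes 34.1% were lower under cantharidin and 28.8% under OA, with medians of -0.16 and 0.01. AXL, a receptor tyrosine kinase gene, read 10566 in control, 2433 after cantharidin and 1032 after OA (-1.98 and -3.61). IGFBP3, which encodes a binding protein for insulin-like growth factors, read 2042, 260.1 and 392 (-2.83 and -2.63), and ARHGEF17 was at -2.61 and -1.59.

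A few of these target genes lay above control. F3, the gene for tissue factor, read 94.7 in control, 988 after cantharidin and 737 after OA (3.52 and 2.70). The study listed F3 among genes picked on these arrays, so its direction is not independent evidence. NUAK2, a kinase gene with 2 TEAD matches in the promoter shown above, read 1384 in control, 736 after cantharidin and 19680 after OA. It was 1.71-fold lower after cantharidin (-0.77) and 11.9-fold higher after OA (3.57), the same signs as CCN1. The order of the arrays was the same in NUAK2 as in CCN1, CCN2 and AMOTL2. Other genes of the list ran the opposite way between the agents, with ASAP1, AXL, F3, GADD45A, NT5E, PTPN14 and TGFB2 lower after OA than after cantharidin. The call for TGFB2 was lost when its dim OA signal was set to the floor.

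Genes driven by SRF and its cofactor MRTF, which respond to actin and share some targets with YAP, were lower in 7 of 12 cases under cantharidin and 8 of 12 under OA, with 2 and 1 higher. Their medians were -0.81 and -1.21. Over all genes 34.1% and 28.8% were lower and 27.5% and 28.1% higher, with medians of -0.16 and 0.01. CNN2, which encodes a calponin, read 977 in control, 65.6 after cantharidin and 230 after OA (-3.76 and -2.34). CALD1 (caldesmon) was at -2.38 and -1.83, TPM1 (tropomyosin) at -2.09 and -2.01, and VCL (vinculin) at -1.37 and -1.86. TAGLN, the transgelin gene, was higher on both treated arrays, at 284, 683 and 1408 (1.40 and 2.05). For ACTA2 under OA the signal was not well above background, and its count as lower was lost when it was set to the floor, with a median of -1.10 for the list.

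**Figure D4:**
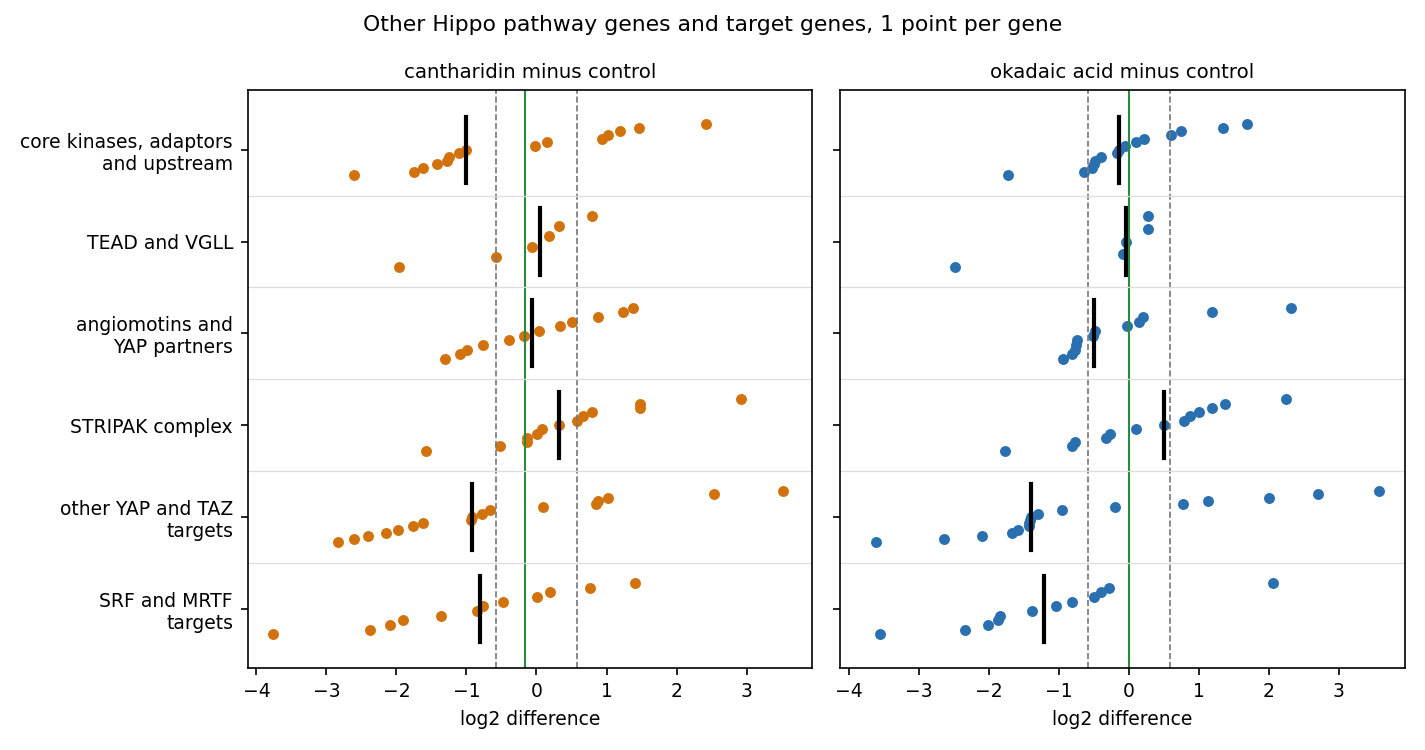
Log2 difference from control of each compared gene in 6 lists (1 point per gene, brightest probe; cantharidin left, OA right; black bar, median of the list; green line, median of all genes; dashed lines, 1.5-fold). The medians of the other YAP and TAZ targets lie at -0.92 and -1.40 and those of the SRF and MRTF targets at -0.81 and -1.21, while the medians of the STRIPAK list lie at 0.32 and 0.51.

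The genes closest to CCN1 and CCN2 over the 3 arrays were sought by the Euclidean distance between their pairs of log2 differences, among 14221 other genes detected on every array. The nearest to CCN1 was CHML, at a distance of 0.09 (-1.77 and 0.87), followed by MGAT5 at 0.13 (-1.86 and 0.80) and OTUD6B. There were 14 genes within 0.25 of CCN1. KCNIP2 and COL12A1 were near neighbours of CCN2, and 325 genes lay within 0.25, so the pattern of CCN2 was a common one on these arrays.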

How the data were processed

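RNA of 3 groups (control, cantharidin and OA, taken from the sample titles) was hybridised to 1 single-colour Agilent array each. The authors deposited spot intensity values from Feature Extraction 11.0.1.1, which per the file headers were background-subtracted within each array. The authors' second file, with deposited log2 values of 30923 probes, carries a normalization that is not given in the sources used here, and it served as an alternative. Here, log2 intensity was averaged over unflagged spots and scaled to the 75th percentile of each array, with no pseudocount. A gene was compared when its brightest probe was detected well above background on either array of a comparison. Transcript accessions of the hg19 array annotation were matched, without version, to RefSeq symbols of GRCh38.p14, which named 25705 of the 34127 transcript probes; symbols only were used. The members, gene lists and alternatives were chosen with earlier results of these data known. All members were named, with up to 5 genes per list by size of difference, among genes detected on all arrays whose probes agreed under that agent, and the genes nearest to CCN1 and CCN2; some genes that this rule named are not reported here. There were 11 alternatives, including normexp correction (offset 50) and quantile normalization in limma 3.58.1 on R 4.3.3; the rest ran in Python 3.11.15 with numpy 2.4.6, pandas 2.3.3 and matplotlib 3.10.9. Precision is limited by having 3 arrays.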

Additional observations from a re-analysis of the deposited data

Results flagged for a closer look

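For CCN1, NUAK2 and WTIP the arrays of the 2 agents lay on opposite sides of control, each by at least 1.5-fold. With 1 array per group this difference was not tested. For CCN1 the OA array exceeded the cantharidin array by 2.77 on the log2 scale. For NUAK2 this gap was 4.35. For WTIP it ran the other way, at -2.05. NT5E also lay on opposite sides by its brightest probe, at 1.02 for cantharidin and -1.40 for OA. Its other probe was lower under both agents, at -1.47 and -3.24.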

How the results depend on the processing

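Across 11 alternatives, 1287 values of named genes were recomputed, and 0 of the called differences changed sign. Of these values, 1144 stayed within the combined spot error of the 2 arrays compared and 143 moved further. These genes were well above background on all 3 arrays. The 2-fold threshold, the changed filters on dim probes and the floor for dim signals therefore left their values unchanged by construction. The median over probes did the same for genes with 1 probe, so part of the 1144 was fixed in advance. At a 2-fold threshold the members counted as higher and lower were 1 and 1 for cantharidin (against 3 and 4) and 2 and 0 for OA (against 4 and 2), with 0 lower for OA against cantharidin (against 1), and the list genes higher under cantharidin were 13 (against 21). Without scaling, the members lower for OA against cantharidin were also 0, since the median of all genes then stood at 0.52; it stood at -0.30 and 0.26 for cantharidin and OA against control. CCN1 ranged from -1.97 to -1.73 for cantharidin and from 0.81 to 1.19 for OA, CCN2 from -0.99 to -0.78 for cantharidin, and AMOTL2 from -0.80 to -0.59. The member counts fell by construction at the stricter threshold. No paired analysis was possible because each group had 1 array. Dim probes near background, ANKRD1 and the LATS1 probes among them, limit what can be compared.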
